A study of Sus scrofa with 16 samples.

Results

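DKK2 and DKK3, secreted proteins of the Dickkopf family, and TSPAN12, a membrane protein of a Wnt receptor complex, were followed in 2 skeletal muscles of the pig. The 3 genes, of 6765 symbols that a probe set carried alone, were represented by 4 of the 24123 probe sets of the table, namely 2 for DKK2 and 1 each for DKK3 and TSPAN12, taken as every probe set whose only gene symbol in the platform annotation was one of the 3. The genes were selected because their difference between the muscles was already known from these arrays. All values of that difference are therefore given as a description, with no test, and the tests below concern feeding level, sex, and whether the muscle difference depended on either. All 4 probe sets passed the filter on low values, a log2 value at or above 4 in at least 4 of 16 arrays.

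The animals were 8 Iberian pigs, a fat Mediterranean breed, slaughtered at 211 days of age. In each sex 2 animals were on a high feeding level and 2 were under a 20% feed restriction. Animals 1 and 4 were males at high feeding, 2 and 3 restricted males, 6 and 7 females at high feeding, and 5 and 8 restricted females. Each gave 1 Affymetrix array of the diaphragm, the main breathing muscle, and 1 of the psoas major, a loin muscle, so that the animal number paired 16 arrays and each of the 8 combinations held 2. The start of the restriction and any castration of the males are not known here. Both muscles were measured as whole tissue, in which fewer cells of a type and less RNA per cell cannot be told apart.

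Wnt proteins are secreted signals that bind Frizzled receptors and the co-receptors LRP5 and LRP6 on the cell surface, which spares beta-catenin from breakdown and lets it act with TCF and LEF factors on target genes. Dickkopf proteins work outside the cell. DKK2 binds LRP5 and LRP6 and can dampen or, in some settings, support the signal, while DKK3 is a divergent family member with a less settled link to these receptors. TSPAN12 is a tetraspanin that binds FZD4 and strengthens its response to the ligand Norrin, a role known best from the vessels of the retina. In skeletal muscle, Wnt signals are known for their part in development and regeneration.

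The DKK2 symbol was carried by 2 probe sets that behaved differently. It rests on the platform annotation alone, and whether each probe set targets the DKK2 transcript was not checked. At Ssc.30925.1.A1_at the log2 values in diaphragm were 5.89 at the lowest, 7.82 at the median and 8.61 at the highest, with a mean of 7.57 ± 1.02 (SD, n = 8). In psoas they were 8.30, 9.38 and 11.07, with a mean of 9.52 ± 1.04 (SD, n = 8). The muscles overlapped, since the diaphragm of animal 8 (8.61) lay above the psoas of animals 2 (8.30) and 3 (8.48), but within every animal the psoas array was the higher one. The mean psoas minus diaphragm difference was 1.94 on the log2 scale, 3.85-fold (± 0.31 SE).

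The size of this difference varied widely among the animals. It was smallest in animal 1, at 0.22, and largest in animal 5, at 3.999. Animals 8 (0.97), 2 (1.49), 7 (1.69), 4 (1.72), 3 (2.59) and 6 (2.88) lay between them. Animal 1, a male at high feeding, had 8.45 in diaphragm and 8.67 in psoas, and animal 5, a restricted female, had 6.67 and 10.67. Without animal 5 the mean difference was 1.65 and without animal 1 it was 2.19.

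At the other DKK2 probe set, Ssc.11152.1.S1_at, the muscles hardly differed. Values were 7.14 at the lowest, 7.30 at the median and 7.42 at the highest in diaphragm, and 6.91, 7.33 and 7.41 in psoas. The psoas minus diaphragm difference was -0.07 ± 0.07 (SE), negative in 6 of 8 animals and positive in animals 1 and 2. The SD over animals was 0.09 in diaphragm and 0.18 in psoas, against 1.02 and 1.04 at the first probe set. Over the 16 arrays the 2 DKK2 probe sets had a Pearson r of -0.18 (a description over paired arrays of 8 animals). A DKK2 level for the gene as a whole therefore depends on the probe set, and the 2 are kept apart here.

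The spread of the first DKK2 probe set between animals was among the widest on the array. Its SD lay at percentile 99.1 of 11467 tested probe sets in diaphragm and 99.0 in psoas, where the median SD was 0.24 and 0.25. For DKK3 the SD lay at percentiles 86.7 and 84.8, and for TSPAN12 at 91.7 in diaphragm and 54.3 in psoas. The second DKK2 probe set lay at 5.76 and 25.5.

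DKK3 was low on these arrays and lower in psoas. In diaphragm the log2 values of Ssc.8027.1.A1_at were 5.39 at the lowest, 5.97 at the median and 6.38 at the highest, with a mean of 5.93 ± 0.43 (SD, n = 8). In psoas they were 2.95, 4.09 and 4.29, with a mean of 3.90 ± 0.43 (SD, n = 8), and 3 of the 8 psoas arrays (animals 2, 4 and 7) lay below 4. The 2 muscles did not overlap. The difference was -2.03 ± 0.20 (SE), 4.07-fold higher in diaphragm, and its size rests in part on psoas values near background, where the summary method compresses differences.

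The paired DKK3 differences stayed within a narrow span. They ran from -2.59 in animal 4, the animal with the lowest psoas value, to -1.53 in animal 2, with a median of -2.05. Of the 4 probe sets, the SD of the paired difference was 0.36 for DKK3, 0.54 for TSPAN12, 1.18 for the first DKK2 probe set and 0.15 for the second.

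TSPAN12 was higher in diaphragm in all 8 animals. Values of Ssc.6783.1.S1_at in diaphragm were 8.56 at the lowest, 9.21 at the median and 10.05 at the highest, with a mean of 9.24 ± 0.50 (SD, n = 8). In psoas they were 6.25, 6.48 and 7.02, with a mean of 6.55 ± 0.27 (SD, n = 8). Every diaphragm array lay above every psoas array by at least 1.54 on the log2 scale, and all arrays were well above 4. The difference was -2.68 ± 0.19 (SE), 6.42-fold higher in diaphragm, with paired differences from -3.68 in animal 6 to -2.07 in animal 8.

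As background for these descriptions, 27% of the 11467 tested probe sets were called between the muscles by limma at an adjusted p under 0.05, 14.6% higher in psoas and 12.4% higher in diaphragm. The 8 animals shared 1 sign in 21.4% of them, and the muscles did not overlap in 3.72%. Since the muscle contrast selected the genes, nothing is read from their place in these shares.

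**Figure D1:**
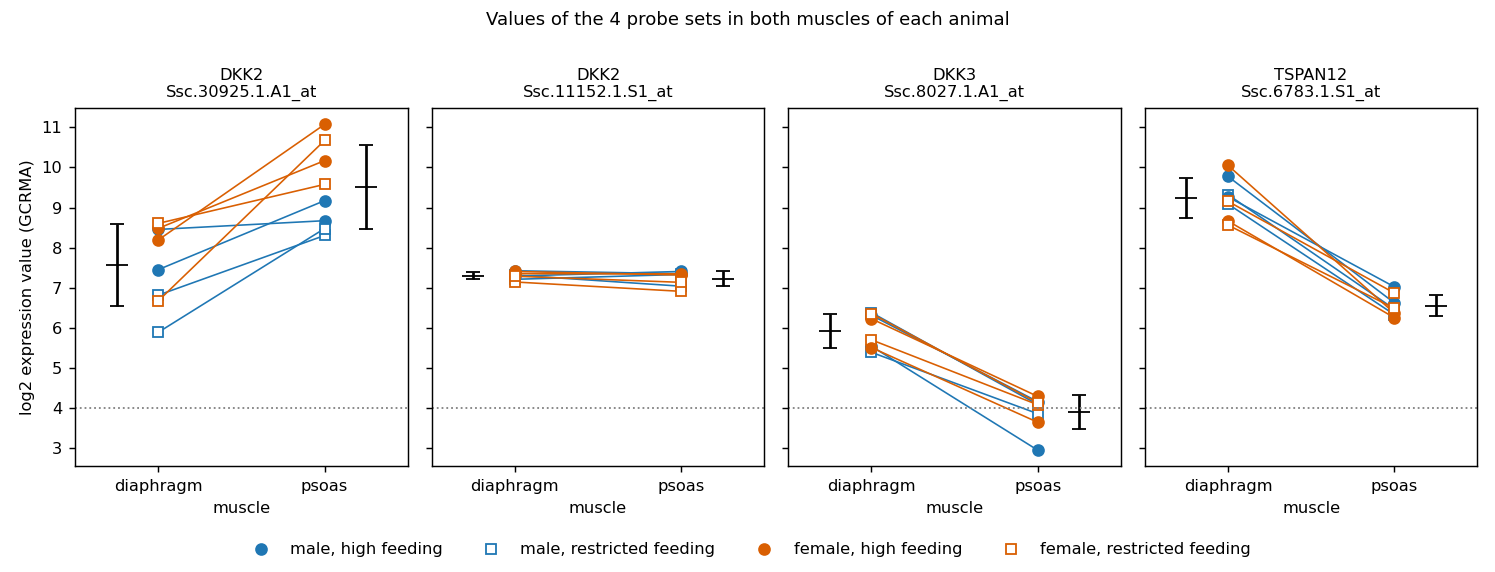
Log2 expression values of the 4 probe sets (y axis) in diaphragm and psoas (x axis), with a line joining the 2 arrays of each of 8 animals, colour for sex, filled circles for high feeding and open squares for restriction; black bars at the sides are mean ± SD (n = 8) and the dotted line marks 4. DKK2 Ssc.30925.1.A1_at is higher in the psoas of all 8 animals with unequal slopes, Ssc.11152.1.S1_at is nearly flat, and DKK3 and TSPAN12 are lower in every psoas.

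The muscle difference was then set out by feeding level. For TSPAN12 the paired differences at high feeding were -3.15, -2.24, -3.68 and -2.41 in animals 1, 4, 6 and 7, and under restriction -2.76, -2.85, -2.29 and -2.07 in animals 2, 3, 5 and 8. For DKK3 they were -2.15, -2.59, -1.94 and -1.86 at high feeding and -1.53, -2.29, -1.62 and -2.22 under restriction. The feeding levels overlapped for both genes. At the first DKK2 probe set the means were 1.63 ± 1.09 at high feeding and 2.26 ± 1.34 under restriction (SD, n = 4 animals each), again with overlap.

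No dependence of the muscle difference on feeding level passed limma's test for the 4 probe sets. The change in the psoas minus diaphragm difference, restricted minus high, was 0.63 (95% confidence interval -0.89 to 2.15, adjusted p = 0.902) for the first DKK2 probe set and -0.12 (-0.44 to 0.20, adjusted p = 0.91) for the second DKK2 probe set. It was 0.22 (-0.31 to 0.75, adjusted p = 0.902) for DKK3 and 0.38 (-0.39 to 1.15, adjusted p = 0.881) for TSPAN12. Without 1 animal the estimate for the first DKK2 probe set ran from 0.12 (without animal 5) to 1.33 (without animal 8), and that for TSPAN12 from 0.03 (without animal 6) to 0.66 (without animal 4). Over all 11467 probe sets limma called 0, or 0%, in this comparison, with 696 at an unadjusted p under 0.05.

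Feeding level itself was compared on the mean of the 2 arrays of each animal. At the first DKK2 probe set the animal means at high feeding were 8.56 and 8.31 in the males and 9.63 and 9.33 in the females. Under restriction they were 7.56 and 7.18 in the males and 8.67 and 9.09 in the females. Within each sex both animals at high feeding lay above both restricted animals, while the feeding levels overlapped over both sexes.

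With sex as a covariate, this probe set was 0.83 lower under restriction (log2 difference -0.83 ± 0.16 SE, 1.78-fold, 95% interval -1.21 to -0.45), but it did not pass after adjustment over all probe sets (adjusted p = 0.278). It ranked 31 of 11467 by p. An exact permutation of feeding labels within each sex gave p = 0.0556 (two-sided), which is the smallest that its 36 arrangements allow. Such a separation within both sexes, with high feeding above restriction, was found in 6.82% of all tested probe sets, and limma called 0% in this comparison (0 probe sets, with 1451 at an unadjusted p under 0.05).

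The feeding difference of this probe set was larger in diaphragm than in psoas by its estimate, though the difference between the muscles was not called. In diaphragm the values at high feeding were 8.45, 7.45, 8.19 and 8.48 in animals 1, 4, 6 and 7, and under restriction 6.82, 5.89, 6.67 and 8.61 in animals 2, 3, 5 and 8. The feeding levels overlapped in diaphragm, since the restricted animal 8 had the highest diaphragm value of all. The difference was -1.15 ± 0.47 (SE, adjusted p = 0.502), in a comparison in which limma called 0% (0 probe sets, with 1101 at an unadjusted p under 0.05). Without 1 animal it ran from -1.63 (without animal 8) to -0.85 (without animal 5). In psoas the values were 8.67, 9.17, 11.07 and 10.17 at high feeding and 8.30, 8.48, 10.67 and 9.58 under restriction, with a difference of -0.51 ± 0.28 (SE, adjusted p = 0.525), where limma called 0% (0 probe sets, with 1291 at an unadjusted p under 0.05). The psoas difference was -0.30 without animal 8 and -0.34 without animal 6.

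A sign of RNA quality moved with the same animals. In diaphragm the actin control's 3' probe set exceeded its 5' probe set by 4.07 to 4.33 (log2) in animals 1, 2, 3 and 5 and by 3.35 to 3.49 in animals 4, 6, 7 and 8, so that 3 of the 4 restricted animals and 1 of the 4 at high feeding were in the higher set. The first DKK2 probe set averaged 6.96 ± 1.08 in the former and 8.18 ± 0.52 in the latter diaphragms (SD, n = 4 each), with overlap through animal 1. In psoas the actin ranges of the same 2 sets overlapped (3.29 to 3.71 and 3.07 to 3.85). With this split as a covariate the feeding difference over both muscles was -0.79 ± 0.21 (SE, adjusted p = 0.575). In diaphragm it went from -1.15 to -0.92 ± 0.59 (SE, adjusted p = 0.78), and in psoas from -0.51 to -0.66 ± 0.36 (SE, adjusted p = 0.767). The change of the muscle difference with feeding went from 0.63 to 0.25 ± 0.83 (SE, adjusted p = 0.994). The diaphragms of animals 1, 2, 3 and 5 also lay above every psoas array in the actin measure, so in these animals it cannot be told apart from the muscle. With animals 4, 6, 7 and 8 alone the psoas minus diaphragm difference was 1.82 and -0.08 for the first and second DKK2 probe sets. It was -2.15 for DKK3 and -2.60 for TSPAN12.

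Hepatocyte markers also varied among these diaphragms. The log2 of their summed level in diaphragm was 10.85, 10.64, 9.09 and 10.13 at high feeding in animals 1, 4, 6 and 7, and 8.88, 8.12, 9.27 and 11.37 under restriction in animals 2, 3, 5 and 8. Animal 3 was lowest and animal 8 highest in this sum, as at the first DKK2 probe set, but the order between them differed. Animal 4 lay above animal 6 in the sum (10.64 against 9.09) and below it at the probe set (7.45 against 8.19). Between the muscles the markers were higher in diaphragm (median psoas minus diaphragm -2.49), while this probe set was higher in psoas. The 7 tested hepatocyte markers had a median restricted minus high difference of -1.24 in diaphragm and 0.12 in psoas, and their psoas minus diaphragm difference changed with feeding by a median of 1.36. limma called 0 of the 7 for feeding in diaphragm (0 at an unadjusted p under 0.05) and 0 of the 7 for muscle by feeding (0). The part of these markers in the DKK2 values was not tested.

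The other DKK2 probe set also lay lower under restriction, by a small amount. Animal means of the second DKK2 probe set were 7.35, 7.39, 7.35 and 7.36 at high feeding and 7.27, 7.18, 7.03 and 7.21 under restriction, in animals 1, 4, 6, 7 and 2, 3, 5, 8. The 2 feeding levels did not overlap, as was the case for 5.97% of all tested probe sets. The difference of -0.19 ± 0.08 (SE, 1.14-fold, adjusted p = 0.397) did not pass, and the exact permutation within sex gave p = 0.0556. Its estimate was -0.13 in diaphragm (adjusted p = 0.674) and -0.25 in psoas (adjusted p = 0.457). Its values also moved with the actin measure in diaphragm (Pearson r = -0.77, n = 8), less so in psoas (-0.06). Diaphragms of animals 1, 2, 3 and 5 measured 7.14 to 7.32 and those of animals 4, 6, 7 and 8 7.29 to 7.42. With the actin split as a covariate limma's feeding difference was -0.13 ± 0.10 over both muscles (SE, adjusted p = 0.777). In diaphragm it was -0.06 ± 0.10 (adjusted p = 0.938) and in psoas -0.21 ± 0.15 (adjusted p = 0.819).

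DKK3 and TSPAN12 showed no feeding difference beyond the spread between animals. For DKK3 the animal means were 5.24, 4.25, 5.26 and 4.58 at high feeding and 4.63, 5.24, 4.89 and 5.24 under restriction, and the difference was 0.17 (95% interval -0.42 to 0.76, adjusted p = 0.814). For TSPAN12 they were 8.201, 8.15, 8.21 and 7.46 at high feeding and 7.71, 7.90, 8.01 and 7.53 under restriction, with a difference of -0.22 (-0.65 to 0.21, adjusted p = 0.648). Both intervals include 0. In diaphragm alone TSPAN12 was 9.44 ± 0.61 at high feeding and 9.03 ± 0.33 under restriction (SD, n = 4 each, difference -0.41, adjusted p = 0.68). In psoas it was 6.57 ± 0.34 and 6.54 ± 0.23 (difference -0.03, adjusted p = 0.969). DKK3 differed by 0.06 in diaphragm (adjusted p = 0.965) and 0.28 in psoas (adjusted p = 0.721).

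**Figure D2:**
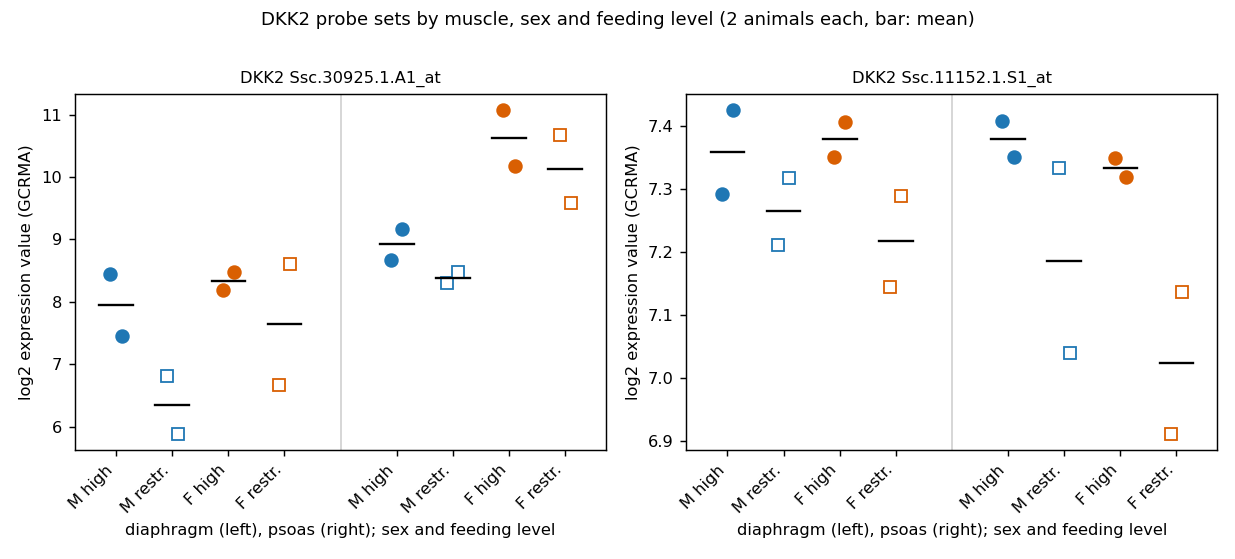
Log2 expression values of the 2 DKK2 probe sets (y axes, on different scales) for each combination of muscle, sex (M, F) and feeding level (x axis), with 1 point per animal, filled for high feeding, and a black bar for the mean of 2 animals. At Ssc.30925.1.A1_at the 4 psoas values of females, 9.58 to 11.07, lie above those of males, 8.30 to 9.17, and at Ssc.11152.1.S1_at all values lie between 6.91 and 7.42.

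Of the 4 probe sets, the first DKK2 probe set was the one called between the sexes, a call that earlier results of these arrays had already shown. Its animal means were 8.56, 7.56, 7.18 and 8.31 in males 1 to 4 and 8.67, 9.63, 9.33 and 9.09 in females 5 to 8, with no overlap, as in 4.4% of all tested probe sets. Females were 1.28 higher on the log2 scale (± 0.16 SE, 2.42-fold, adjusted p = 0.0328 by limma), and 0.183% of all tested probe sets were called. The call was lost with all 16 arrays and the animal as a random block (adjusted p = 0.231), with no filter (0.212) and with the actin split as a covariate (0.201). Of the animals with the higher actin values in diaphragm, 3 were males and 1 was a female. Leaving out animal 1 alone kept it (0.0404), while leaving out any other animal gave an adjusted p from 0.0528 (animal 7) to 0.138 (animal 5), with 0.0785 without animal 8, 0.108 without 3, 0.129 without 6, 0.13 without 2 and 0.134 without 4.

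The sexes were separate in psoas and not in diaphragm. In psoas the males measured 8.67, 8.30, 8.48 and 9.17 and the females 10.67, 11.07, 10.17 and 9.58, a difference of 1.72 ± 0.28 (SE, 3.29-fold, adjusted p = 0.126), where 0.0959% of all tested probe sets were called. Groups did not overlap in psoas in 5.42% of all tested probe sets. In diaphragm the males measured 8.45, 6.82, 5.89 and 7.45 and the females 6.67, 8.19, 8.48 and 8.61, a difference of 0.84 ± 0.47 (SE, adjusted p = 0.816), where 0.122% were called. Without animal 8 the diaphragm difference was 0.36. Whether the muscle difference depended on sex did not pass the test (0.88, 95% interval -0.64 to 2.40, adjusted p = 0.697), and its estimate ran from 0.36 without animal 5 to 1.57 without animal 8. limma called 0% of the probe sets in that comparison (0, with 1161 at an unadjusted p under 0.05).

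Ordered by mean, the 8 combinations of the first DKK2 probe set began with the psoas of females, at 10.62 at high feeding (10.17 and 11.07) and 10.13 under restriction (9.58 and 10.67). These were followed by the psoas of males at high feeding (8.92) and under restriction (8.39), then by the diaphragm of females at high feeding (8.34), males at high feeding (7.95), restricted females (7.64) and restricted males (6.35). With 2 animals each, neighbours in this order overlapped or lay closer than their spread, apart from 2 steps. One was the step from the psoas of restricted females (9.58 and 10.67) to that of males at high feeding (8.67 and 9.17), and the other that between the male psoas at the 2 feeding levels (8.67 and 9.17 against 8.30 and 8.48).

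The remaining 3 probe sets showed no sex difference beyond the spread. Female minus male differences of animal means were -0.06 (95% interval -0.25 to 0.13, adjusted p = 0.886) for the second DKK2 probe set, 0.16 (-0.44 to 0.75, adjusted p = 0.907) for DKK3 and -0.19 (-0.61 to 0.24, adjusted p = 0.833) for TSPAN12. The muscle difference changed with sex by -0.09 (-0.41 to 0.23, adjusted p = 0.878), 0.23 (-0.30 to 0.76, adjusted p = 0.779) and 0.14 (-0.63 to 0.91, adjusted p = 0.925) for these 3.

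Across the 8 combinations, DKK3 was highest in the diaphragm of restricted females (6.03) and lowest in the psoas of males at high feeding (3.56). The 4 diaphragm means lay between 5.87 and 6.03 and the 4 psoas means between 3.56 and 4.11, and within a muscle neighbouring combinations overlapped or differed by less than their spread. TSPAN12 was highest in the diaphragm of males at high feeding (9.52 ± 0.36) and lowest in the psoas of females at high feeding (6.31 ± 0.08, SD, n = 2 each). Its diaphragm means lay between 8.86 and 9.52 and its psoas means between 6.31 and 6.82. In the order of TSPAN12 means, neighbours within a muscle overlapped, apart from the psoas of restricted females (6.49 and 6.87) and of restricted males (6.33 and 6.47).

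**Figure D3:**
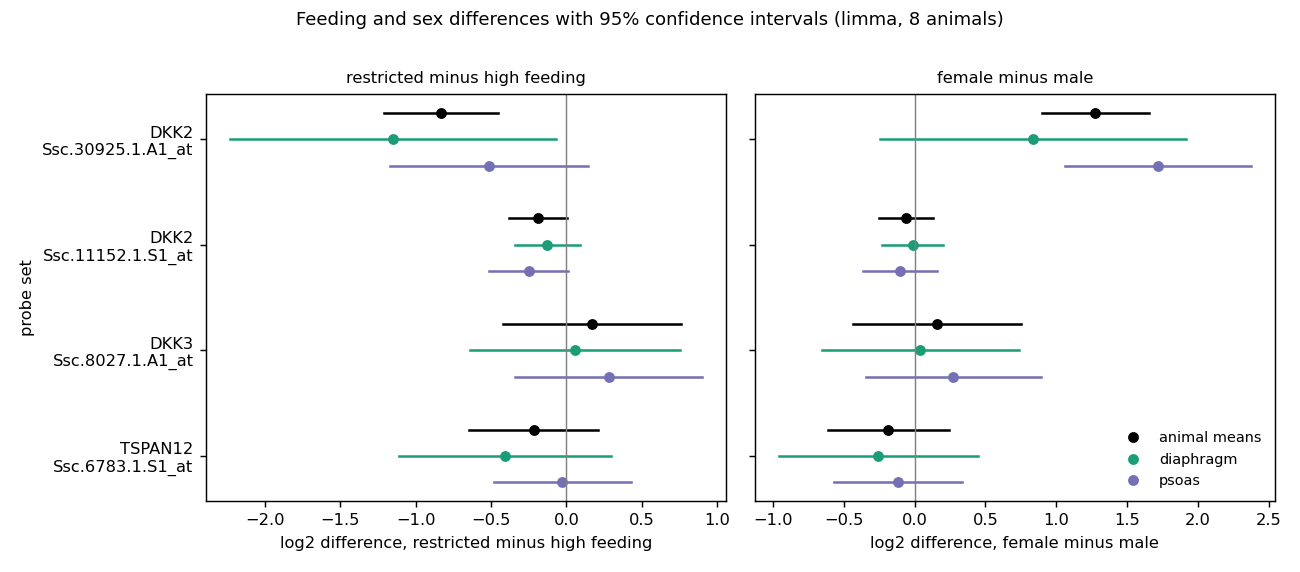
Differences restricted minus high feeding (left) and female minus male (right) on the log2 scale (x axes) for the 4 probe sets (y axis), as points with 95% confidence intervals from limma over 8 animals, for animal means (black), diaphragm (green) and psoas (violet). The female minus male difference of DKK2 Ssc.30925.1.A1_at over animal means, 1.28, was called, and no feeding difference was.

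The genes most like each probe set were named by Pearson r of log2 values over 16 arrays, among the 5830 tested probe sets with 1 symbol, as a description of arrays that are paired within 8 animals. For TSPAN12 these were SKAP2 (r = 0.963), MEIS2 (0.962) and SH3KBP1 (0.95). SKAP2 encodes an adaptor protein, MEIS2 a homeobox cofactor and SH3KBP1 an adaptor of receptor uptake. For DKK3 they were ABLIM1, an actin-binding LIM protein (0.983), the transporter ABCG2 (0.948) and the G protein subunit GNG11 (0.945). For the first DKK2 probe set they were SYNE2, a protein of the nuclear envelope (0.911), the clathrin adaptor subunit AP2B1 (0.867) and the integrin subunit ITGB5 (0.865). For the second DKK2 probe set they were RASSF1 (0.870), ST6GALNAC4 (0.84) and WDR45 (0.839).

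The same measure was also taken after each muscle's mean was subtracted. ABLIM1 remained first for DKK3 (r = 0.867), followed by TNFRSF21 (0.845) and SLC25A24 (0.84). For TSPAN12 the first 3 were then TOR3A (0.838), MTMR2 (0.817) and MTMR11 (0.810), none of which was among the first 3 before. For the first DKK2 probe set they were HAUS8, a subunit of a spindle complex (0.915), SYNE2 (0.848) and NUDT14 (0.809). RASSF1 (0.873), WDR45 (0.850) and ST6GALNAC4 (0.829) were again the 3 of the second DKK2 probe set.

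Over all 16 arrays DKK3 and TSPAN12 had r = 0.90, and the first DKK2 probe set had -0.61 with DKK3 and -0.69 with TSPAN12. With the muscle means subtracted these were 0.06, 0.18 and -0.03. The arrays share animals and a common normalization, and no p is given.

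Other genes of the Wnt pathway were sparse on this array. Of 134 genes listed by role, 37 had a probe set with that symbol alone and 24 were tested, 1 probe set per gene. Of these 24, 3 were higher in diaphragm, 1 was higher in psoas and 20 were not called, that is 16.7% called, against 29.5% of all 4571 tested genes. The median psoas minus diaphragm difference was -0.02, against 0.04 over all tested genes. When the probe set of smallest p stood for each gene, 5 of the 24 were called in place of 4.

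Among ligand genes, NDP, which encodes the Norrin that signals through FZD4 and TSPAN12, and WNT10B did not pass the filter, with highest values of 2.01 and 2.05 on any array. WLS, the carrier that Wnt proteins need for secretion, was tested and was 1.78-fold higher in diaphragm (8.31 against 7.48, difference -0.83 ± 0.13 SE, adjusted p = 4.1e-04), lower in psoas in 8 of 8 animals.

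Of 4 receptor genes tested, FZD6 was higher in diaphragm (-0.48 ± 0.11 SE, adjusted p = 0.0058, in 8 of 8 animals) and 3 were not called. FZD4, the receptor that TSPAN12 binds, averaged 10.08 in diaphragm and 9.80 in psoas. Its difference of -0.27 ± 0.12 (SE, adjusted p = 0.106) did not pass, and 7 of 8 animals shared its sign. The co-receptor LRP6, to which DKK2 binds, measured 4.44 and 4.16 (adjusted p = 0.306), close to the filter, and FZD5 measured 5.12 and 5.47 (adjusted p = 0.321).

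Of the other inhibitors outside the cell, DKK1, SFRP1 and APCDD1 were on the array and none passed the filter. DKK1, the best known Dickkopf gene, reached 3.14 at most, SFRP1, a secreted Frizzled-related protein, 4.72 and APCDD1 4.10. DKK2 and DKK3 were therefore the only genes of this class, as listed here, that could be tested.

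Inside the cell, CSNK1G2, a casein kinase, was higher in psoas (0.43 ± 0.11 SE, adjusted p = 0.013, in 8 of 8 animals), as 1 of 8 cytoplasmic genes. CTNNB1, the gene of beta-catenin, measured 11.33 in diaphragm and 11.13 in psoas and was not called (-0.20, adjusted p = 0.074). None of 5 tested nuclear genes was called by limma, CTNNBIP1, an inhibitor of beta-catenin, having the smallest p (difference 0.51, unadjusted p = 0.0919, adjusted p = 0.194). Of 6 tested target genes, GJA1, a gap junction protein, was higher in diaphragm (-0.74 ± 0.19 SE, adjusted p = 0.011, 7 of 8 animals), while MYC (-0.02), JUN (0.02), VEGFA (0.06), FST (0.05) and BMP4 (-0.26) were not called. AXIN2 and CCND1, also on the target list, had no probe set with that symbol alone.

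Other tetraspanins, the membrane protein family of TSPAN12, were also measured. Of 12 tested, 3 were higher in diaphragm and 1 in psoas, that is 33.3% called, against 29.5% of all 4571 tested genes, with a median difference of -0.02 against 0.04. CD81, a partner of many surface receptors, was 1.51-fold higher in diaphragm (-0.60 ± 0.09 SE, adjusted p = 4.7e-04), TSPAN13 1.53-fold (-0.62 ± 0.11, adjusted p = 0.0011) and the leukocyte gene CD53 1.76-fold (-0.82 ± 0.25, adjusted p = 0.026). CD53 had a psoas mean of 3.87, with 4 of 8 psoas arrays below 4. TSPAN31 was 1.24-fold higher in psoas (0.31 ± 0.08 SE, adjusted p = 0.0086). These 4 differences had 1 sign in 8 of 8 animals. When the probe set of smallest p stood for each gene, 4 of the 12 were again called.

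Animals 4, 6, 7 and 8, the set with the smaller actin difference in diaphragm, were also fitted alone. There limma called 405 of 11467 probe sets between the muscles. It called 0 of the 24 Wnt genes (4 at an unadjusted p under 0.05) and 0 of the 12 tetraspanins (3 at an unadjusted p under 0.05). With so few calls over all probe sets, nothing is read from these list counts. In the fits of all 8 animals, limma called 0 of the 24 and 0 of the 12 between feeding levels (2 and 3 at an unadjusted p under 0.05). Between the sexes limma called 0 and 0 (2 and 1) in these fits. Over all tested probe sets it called 0% for feeding and 0.183% for sex, with 12.7% and 9.17% at an unadjusted p under 0.05.

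**Figure D4:**
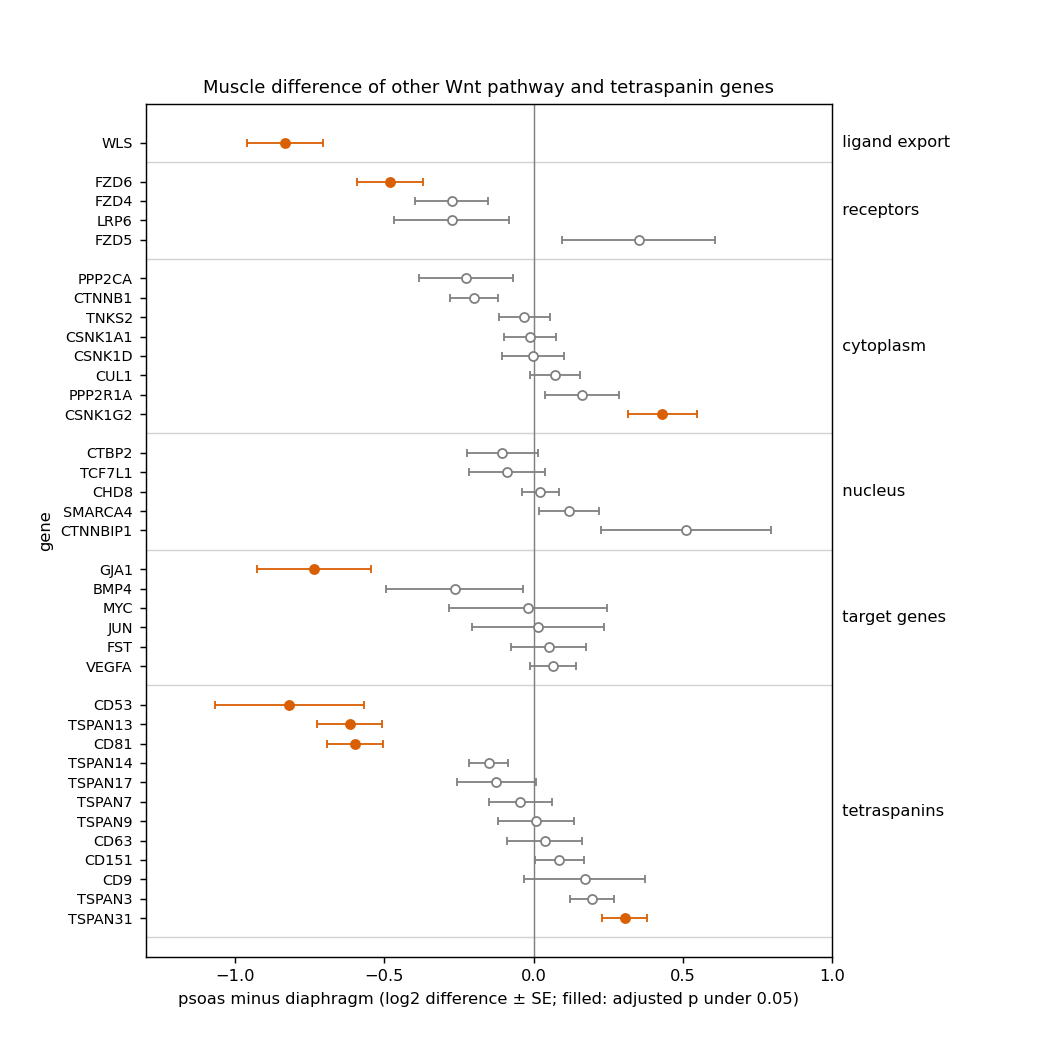
Psoas minus diaphragm differences (x axis, log2 ± SE, 16 arrays) of the 24 Wnt pathway genes and 12 tetraspanins that were tested (y axis, grouped by role), filled where the adjusted p was under 0.05. WLS, FZD6, GJA1, CD53, TSPAN13 and CD81 lie on the diaphragm side and CSNK1G2 and TSPAN31 on the psoas side, with WLS, at -0.83, the farthest from 0 of those filled.

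Markers of several other cell types were higher in diaphragm, as DKK3 and TSPAN12 were. Of all 4571 tested genes, 12.2% were called higher in diaphragm and 17.3% higher in psoas. All 8 tested endothelial markers were higher in diaphragm (median -0.76), and the log2 of their summed level was 10.86 to 11.39 in diaphragm and 10.11 to 10.69 in psoas, with KDR and TIE1 below 4 on every array. Of 8 fibroblast markers 5 were higher in diaphragm and 1 in psoas (12.93 to 13.58 against 12.19 to 12.91), of 3 adipocyte markers 2 (10.56 to 11.95 against 10.08 to 10.77, LEP below 4 throughout), and of 4 immune markers 2 (9.45 to 10.42 against 8.70 to 9.67, with PTPRC, CD2, CD14 and CD3E below 4 throughout). All 7 hepatocyte markers were higher in diaphragm (8.12 to 11.37 against 7.13 to 7.96, SERPINA1 and TTR below 4 throughout). Of 6 smooth muscle and pericyte markers 1 was higher in each muscle (12.09 to 12.84 and 11.68 to 12.66), and of 2 Schwann cell markers 1 in diaphragm (7.26 to 8.08 and 6.59 to 7.52, SOX10 and NEFL below 4). None of 2 satellite cell, 3 erythrocyte and 5 skeletal muscle markers was called, and the summed skeletal muscle markers lay between 16.82 and 16.98 on all arrays. All 5 mesothelial markers on the array were below 4 throughout. The part of these markers in the DKK3 and TSPAN12 differences was not tested.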

How the data were processed

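Total RNA of 16 muscle samples was isolated with a kit and hybridised as biotinylated cRNA to Affymetrix porcine arrays, per the labels' protocols. The values are log2 expression values per probe set that the authors deposited, summarised with GCRMA per the submitters' processing notes. No GCRMA version is stated. The log2 values were used without further scaling, and array medians were 3.56 to 3.62. GCRMA compresses differences near the floor. The number of arrays limits the precision.

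The platform annotation gave 1 symbol to 10099 probe sets, several to 198 and none to 13826. Updating symbols by Entrez identifier altered none. Probe sets were tested if at or above 4 in at least 4 of 16 arrays, without the 124 controls, which left 11467. For the lists of other genes, the probe set of highest mean stood for a gene. No sequence or genome position is shown.

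Linear models were fitted in R 4.3.3 with limma 3.58.1 (lmFit, eBayes), with Benjamini-Hochberg adjustment over all tested probe sets, and called means an adjusted p under 0.05. P-values for feeding level, for sex and for their bearing on the muscle difference measure the spread between these animals. SEs and p-values between the muscles come from a fit with no term for the animal, which treats the 2 arrays of an animal as independent. Simulated data with independent noise on each array were also run through some of the fits. That check does not bear on the pairing by animal. Muscles were compared on 16 arrays, adjusting for feeding level and sex. Feeding levels and sexes were compared on 8 animals, within each muscle on 8 arrays, and their bearing on the muscle difference on the paired differences, each with the other factor as covariate. The animal number pairs the arrays, since both muscles come from 1 animal, and residuals of the 2 arrays correlated at 0.0724 to 0.257 in the 8 animals. Over the animals, diaphragm and psoas values correlated at r = 0.34 for the first DKK2 probe set, 0.57 for the second, 0.66 for DKK3 and 0.12 for TSPAN12. With a term for each animal the SE of the muscle difference was 0.35, 0.07, 0.12 and 0.17 in the same order. The genes and lists were chosen with earlier results of these data known. Named were all member probe sets, up to 4 called genes per list and direction (with none called, the gene of smallest p), and the 3 most like genes. FZD4, LRP6, FZD5, CTNNB1, the uncalled target genes and the genes below the filter were named beside the rule. Alternatives were other filters, quantile normalization, eBayes with trend and robust, the animal as a block, the actin split and leaving out each animal. For the lists, the probe set of smallest p per gene was a further alternative.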

Additional observations from a re-analysis of the deposited data

How the results depend on the processing

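The muscle differences of the 4 probe sets kept their sign and moved by less than the SD of the paired differences under every alternative tried. Without 1 animal they ran from 1.65 to 2.19 for the first DKK2 probe set, -0.10 to -0.04 for the second, -2.10 to -1.95 for DKK3 and -2.77 to -2.54 for TSPAN12, and the probe sets called from 2162 to 2906 in place of 3094. With animals 4, 6, 7 and 8 alone 405 were called, with 0 Wnt and 0 tetraspanin genes in place of 4 and 4; that fit holds fewer samples. For the lists, this fit and the counts without each animal (Wnt 4 to 5, tetraspanins 3 to 5) were added after seeing the data. Between the sexes 39 probe sets were called with the animal as replicate block and 12 with the actin split, in place of 21, and 13 to 23 without 1 animal. The block changed no call of a member other than that of the first DKK2 probe set between the sexes, and the same 8 list genes were called between the muscles. With no filter 1 probe set was called for feeding in diaphragm and 2 in psoas, and with the actin split 3 for muscle by sex, each in place of 0. Without 1 animal, calls ran from 0 to 1 for feeding, 0 to 2 within diaphragm and 0 to 1 within psoas, and for sex from 10 to 13 within diaphragm and 10 to 14 within psoas. Of the tested member values under alternatives, 389 kept their sign and their side of the threshold, 10 lost the call and 25 changed sign. Among the last, TSPAN12 became 0.0071 (feeding in psoas, quantile normalization), and with the actin split 0.021 (sex in diaphragm) and -0.14 (muscle by sex), while DKK3 became -0.011 (feeding in psoas) and -0.041 (muscle by feeding). Without 1 animal DKK3 ran from -0.033 to 0.36 (feeding), -0.045 to 0.35 (sex), -0.12 to 0.28 (feeding in diaphragm) and -0.18 to 0.22 (sex in diaphragm). TSPAN12 ran from -0.40 to -0.10 (feeding), -0.67 to -0.11 (feeding in diaphragm), -0.18 to 0.13 (feeding in psoas), -0.55 to 0.0044 (sex in diaphragm), -0.27 to 0.042 (sex in psoas) and -0.019 to 0.49 (muscle by sex), and the second DKK2 probe set from -0.047 to 0.022 (sex in diaphragm). The causes were not tested. No scanner files were used here, so other background corrections were not run, and DKK3 in psoas, near 4, is limited by signal.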
